A study of Homo sapiens with 9 samples.

Results

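Mitochondrial ribosomal proteins are the protein subunits of the mitochondrial ribosome (mitoribosome), and their transcripts were followed here across 9 arrays of A673 cells, a Ewing tumour cell line with the EWS/FLI fusion. The members were all probe sets whose only annotated gene symbol starts with MRPL or MRPS. They numbered 64 of the 22283 probe sets on the array, for 51 genes, and 19065 probe sets in all name a single gene. The rule used no measured value. All 51 genes encode subunits of the mitoribosome.

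Cells were transfected for 48 h with 5 nM of a small interfering RNA (siRNA), namely EZH2 siRNA no.2 (2 arrays), a further siRNA to EZH2 that is titled without a number (called unnumbered here, 1 array) or a control siRNA (2 arrays). Other cells were held for 24 h in 100 nM trichostatin A (TSA, 2 arrays), which blocks histone deacetylases, or in the solvent DMSO at 0.01% (2 arrays). All arrays come from this single cell line with no other genetic change, and all groups with 2 arrays have a replicate 1 and a replicate 2. EZH2 is the catalytic subunit of the Polycomb repressive complex that methylates histone H3, and the study asked what it does downstream of the fusion in tumour growth and in the block of differentiation. The titles call the replicates biological without saying that the cultures were separate, and a p here covers no more than the spread among these arrays.

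Human mitochondria translate a small set of membrane proteins, all of them subunits of the respiratory chain and ATP synthase, from mRNAs of their own genome. The ribosome that does so has RNA encoded in the mitochondrion and proteins encoded in the nucleus, made in the cytosol and imported. Some of these proteins descend from bacterial ribosomal proteins and others are found only in mitochondrial ribosomes. Promoters of nuclear genes for mitochondrial proteins are known to bind the ETS factor GABP, NRF1 and YY1, and EWS/FLI carries an ETS DNA-binding domain as well.

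The letters of the members' promoters are shown first, and whether they bear on the regulation of these genes was not tested. RefSeq promoters (assembly GRCh38.p14, 250 bases before to 50 after the first listed start) were matched for 45 of the 51 genes. The ETS core CCGGAAG stood on either strand in 18 of them (40%), against 10.7% of all 27305 promoters and 14.2% of the 15843 promoters of coding genes. The longer CCGGAAGT, which contains that core, stood in 6 of the 45 (13.3%), against 4.44% of all promoters and 6.19% of coding ones. The NRF1 core GCATGCG was present in 6 (13.3%), against 4.13% of all and 5.14% of coding promoters. The longer GCGCATGCG was in 3 (6.67%), against 2.10% and 2.76%. The YY1 core AAGATGG was present in 15 (33.3%), against 6.06% of all and 6.40% of coding promoters. AAGATGGCG was in 8 (17.8%), against 1.85% and 2.74%. The E-box CACGTG was in 3 (6.67%), with 7.43% of all and 8.88% of coding promoters. These are shares of letters in a window, and no binding was measured. The sequences below lie before the start site and show examples of the ETS, NRF1 and YY1 letters, for genes whose values follow, with the motif in capitals. They are at chr3:131502972-131503029 on the minus strand for MRPL3, at chr22:19432508-19432544 on the plus strand for MRPL40, at chr13:40771191-40771248 on the minus strand for MRPS31 (all 3 with the ETS core), at chr11:6683387-6683447 on the minus strand for MRPL17 (NRF1) and at chr14:22829763-22829823 on the plus strand for MRPL52 (YY1).
MRPL3: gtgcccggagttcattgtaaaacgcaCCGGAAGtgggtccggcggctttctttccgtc
MRPL40: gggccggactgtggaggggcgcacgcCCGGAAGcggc
MRPS31: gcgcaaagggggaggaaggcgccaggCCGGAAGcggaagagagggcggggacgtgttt
MRPL17: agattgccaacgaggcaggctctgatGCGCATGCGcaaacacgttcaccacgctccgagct
MRPL52: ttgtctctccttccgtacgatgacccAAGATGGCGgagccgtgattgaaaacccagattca

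By structure, 39 probe sets (33 genes) belong to the large subunit and 25 (18 genes) to the small one. MRPS18A and MRPS30 are named as small-subunit genes but their proteins sit in the large subunit (as mL66 and mL65), so by symbol alone the split is 35 and 29. Genes with a bacterial homologue have 38 probe sets and mitochondria-specific ones 26. These classes follow the current protein names, by which MRPS18A (mL66) and MRPS18B (mS40) count as mitochondria-specific although they are related in sequence to bacterial S18. The mean signal of a probe set over the 9 arrays ran from 11.1 to 5206 on the deposited MAS5 scale, and levels of different probe sets are not compared. A mean signal of 53.2 was required for a test, and 61 probe sets of 50 genes passed. The 3 below it were MRPL20 220527_at, MRPL41 221936_x_at and MRPS11 215919_s_at, with group means of at most 21.7, 18.5 and 49.5.

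The siRNA's target and the cell type were checked first. EZH2 had signals of 572 and 271 with EZH2 siRNA no.2 and of 681 on the single array of the unnumbered one, against 1130.1 and 1172 with the control siRNA. The log2 fold change of EZH2 siRNA no.2 was −1.48 (SE 0.32, limma adjusted p = 0.920 over 13671 probe sets). All 7 Ewing tumour markers on the array, among them CD99, NKX2-2 and STEAP1, lay above the filter level. So did 5 of 6 fibroblast, 2 of 6 epithelial, 1 of 6 endothelial and 2 of 4 blood markers. Array medians ran from 125 to 159 and trimmed means from 500.1 to 500.2. Arrays of 1 group correlated at r = 0.956 to 0.969 across probe sets, and TSA replicate 1 had the lowest mean r with the other arrays (0.961).

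The array that stood apart for these genes was TSA replicate 1. On the scale of log2(signal + 25.1), the median of the 64 probe sets lay 0.40 below their own means over 9 arrays there (−0.40), and 0.17 above them in TSA replicate 2. It was −0.15 and 0.07 with EZH2 siRNA no.2, −0.07 on the array of the unnumbered one, and 0.19 and 0.03 with the control siRNA. It was 0.08 and 0.09 in DMSO. Thus TSA replicate 1 was lowest, control siRNA replicate 1 highest, and both DMSO arrays lay close together. The same median over all single-gene probe sets stayed between −0.09 and 0.05 on the 9 arrays. The RNA is that of all cells in a sample, so fewer cells of a kind and less RNA per cell cannot be told apart. Of the 64 probe sets, 36 (56.3%) had their lowest signal in TSA replicate 1, where 12.6% of all single-gene probe sets had theirs. Of the same 64, 22 (34.4%) had their highest in control siRNA replicate 1, against 7.40% of all. These counts overlap, as for MRPL12, MRPL17 and MRPS28.

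**Figure D1:**
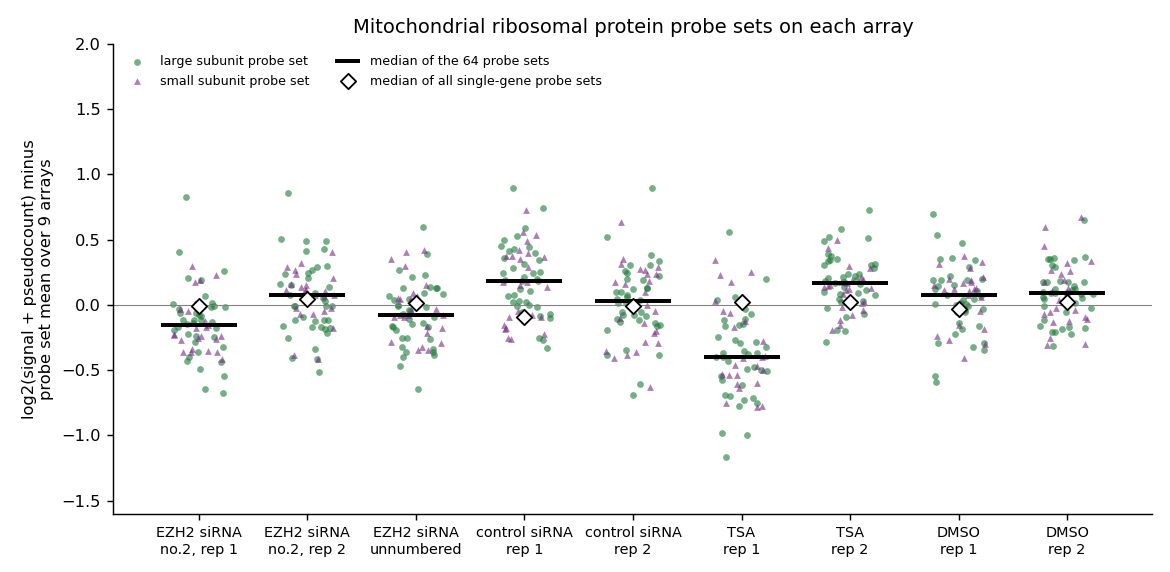
Deviation of each of the 64 probe sets from its own mean over the 9 arrays, in log2(signal + 25.1), for every array. Circles are large-subunit and triangles small-subunit probe sets, bars their median, and open diamonds the median of all single-gene probe sets. The median bar is lowest in TSA replicate 1 (−0.40) and highest in control siRNA replicate 1 (0.19), and the diamonds stay near 0.

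Both subunits shared this order. In TSA replicate 1 the median deviation was −0.37 for the large and −0.40 for the small subunit, and in TSA replicate 2 it was 0.19 and 0.14. MRPL12, the stalk protein of the large subunit that is also known to bind the mitochondrial RNA polymerase, lay farthest below its own mean in TSA replicate 1 (−1.17). Its signals were 545 and 1532 in TSA, against 1209 and 1265 in DMSO. MRPL58, a peptidyl-tRNA hydrolase that frees stalled ribosomes and is itself a large-subunit protein, was next (−0.998), with 353 and 931 in TSA against 1071 and 909 in DMSO. MRPL34, a bL34 homologue, followed (−0.98), with 334 and 899 in TSA against 701 and 728 in DMSO. For MRPL12 and MRPL34 the DMSO arrays lay between the TSA arrays, and for MRPL58 DMSO replicate 2 did. MRPS27, a pentatricopeptide repeat protein of the small subunit, was among the few above their mean in TSA replicate 1 (0.34), with 2514 and 1957 in TSA and 2461 and 1901 in DMSO. These genes are named for their rank on this array, after their values had been seen.

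Cytosolic ribosomal proteins and complex I subunits stood in much the same places. In TSA replicate 1 the median deviation was −0.46 for 95 probe sets of cytosolic ribosomal proteins and −0.49 for 36 of complex I, the entry enzyme of the respiratory chain, and in TSA replicate 2 it was 0.20 and 0.23. With EZH2 siRNA no.2 the medians were −0.31 and 0.14 for cytosolic ribosomal proteins and −0.38 and 0.04 for complex I. In control siRNA replicate 1 they were 0.25 and 0.28. The low position of TSA replicate 1 was therefore shared by all 3 families. Fibroblast markers as a sum were high on that array, though not every marker was. Summed over 6 genes (COL1A1, COL1A2, COL3A1, DCN, LUM and PDGFRB), they read 14716 in TSA replicate 1 and 5971 in TSA replicate 2, against 9238 and 8570 in DMSO, so that TSA replicate 1 was the highest of the 9 arrays. The sums were 6967 to 7309 with EZH2 siRNA no.2 and 6588 on the array of the unnumbered one, against 5632 to 6639 with the control siRNA. Most of the sum was COL1A2, a collagen chain, with signals of 12304 in TSA replicate 1 and 4644 in TSA replicate 2, against 7654 and 6986 in DMSO. LUM was near background throughout, at no more than 65.1. The summed epithelial markers read 5449 to 6890 in TSA against 5448 to 7671 in DMSO, and the endothelial ones 181 to 243 in TSA against 178 to 215 in DMSO, without such a gap. The ratio of 3′ to 5′ signal, a measure of RNA quality, was 0.846 for GAPDH in TSA replicate 1, the lowest of the 9 arrays (0.846 to 1.03), and 1.25 for ACTB, within the range of 1.03 to 1.44. The part of these markers and ratios in the low member signals was not tested.

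**Figure D2:**
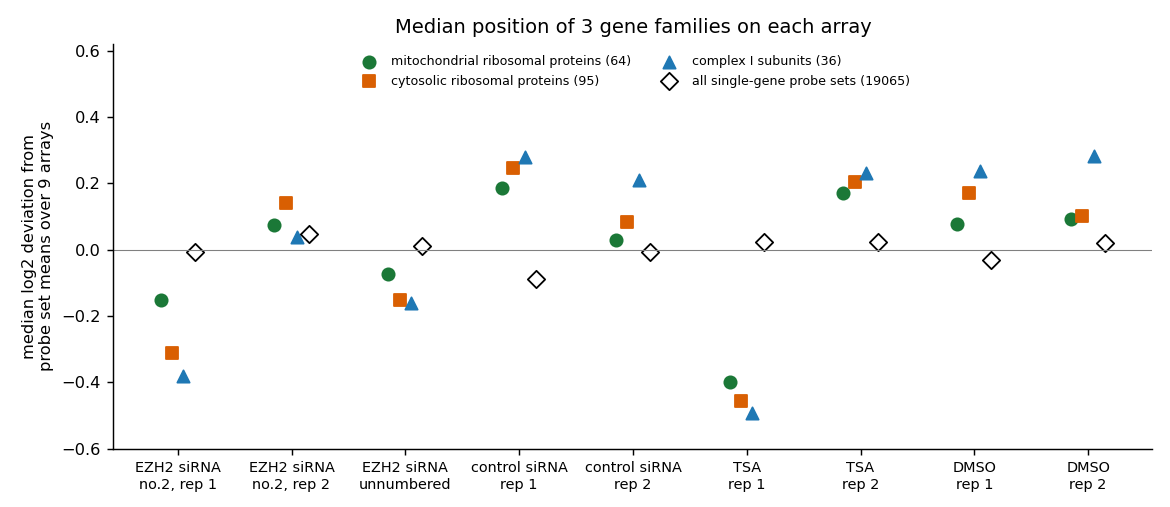
Median deviation of 3 gene families, and of all single-gene probe sets, from their own means over the 9 arrays, in log2(signal + 25.1), with the number of probe sets in the legend. The 3 families lie between −0.49 and −0.40 in TSA replicate 1 and between 0.17 and 0.23 in TSA replicate 2.

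The comparison of TSA with DMSO asks how transcripts respond when histone deacetylases are blocked. No member passed limma at an adjusted p under 0.05 (0 of 61, with 0.0% of all 13671 probe sets called), and the smallest adjusted p among them was 1.00. At an unadjusted p under 0.05 there were 0 higher and 1 lower, where 2.41% of all probe sets were called (1.24% higher and 1.17% lower). The median log2 fold change of the 64 was −0.19, with 15 above 0 and 49 below it, against a median of 0.03 over all single-gene probe sets. Fold changes ran from −0.75 (MRPL58) to 0.41 (MRPL57), and 0 reached 2-fold, which 1.12% of all did. Between groups, 3 did not overlap on the higher side and 13 on the lower (16.3% and 12.6% of all probe sets).

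This shift rested on replicate 1. The median difference between TSA and DMSO was −0.48 for the replicate 1 arrays, with 14 probe sets higher and 50 lower, and 0.06 for the replicate 2 arrays, with 40 higher and 24 lower. Without TSA replicate 1 the median log2 fold change was 0.047, with 38 of 64 above 0, and without TSA replicate 2 it was −0.50. Only 20 probe sets were lower and 10 higher in both replicate numbers. Another 30 were lower in replicate 1 and higher in replicate 2, and 4 the other way. Genes with a bacterial homologue had a median of −0.58 in replicate 1 and 0.06 in replicate 2, and mitochondria-specific genes −0.34 and 0.07. The difference between those classes was not tested.

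**Figure D3:**
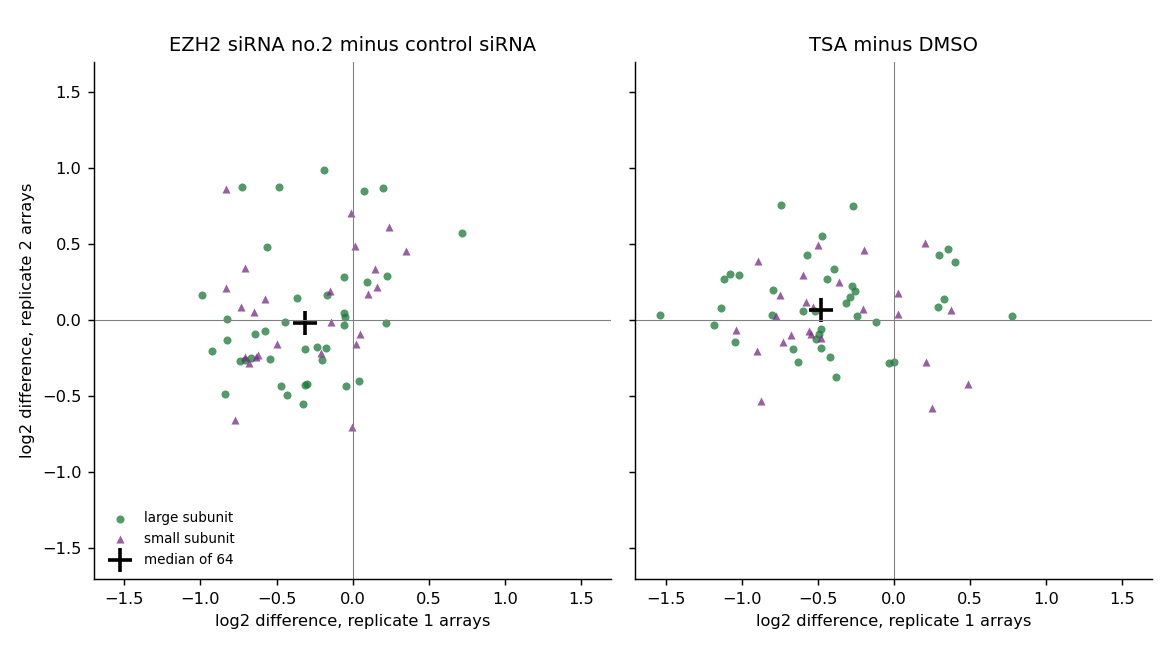
Log2 difference of each of the 64 probe sets in the replicate 2 arrays (vertical) against the replicate 1 arrays (horizontal), for EZH2 siRNA no.2 minus control siRNA (left) and TSA minus DMSO (right). The cross is the median, at −0.31 and −0.02 on the left and at −0.48 and 0.06 on the right, so that most points lie left of 0 and scatter about 0 vertically.

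MRPS14, a small-subunit protein with a bacterial homologue, had the smallest p of the members with TSA. Its probe set 203800_s_at read 1013 and 1589 in TSA, against 1874 and 2311 in DMSO (log2 −0.70, SE 0.29, limma adjusted p = 1.00). Both TSA arrays lay below both DMSO arrays. The DMSO arrays were also above the control siRNA, whose signals were 1200.0 and 1253 (log2 0.75, SE 0.29, limma adjusted p = 1.00), and these comparisons share the DMSO arrays. The other MRPS14 probe set, 203801_at, read 147 and 104 in TSA against 107 and 98.0 in DMSO (log2 0.22), so the TSA direction differed between the probe sets of this gene.

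MRPL39, a mitochondria-specific protein of the large subunit, was the most even of the lower probe sets across replicate numbers. It read 1271 and 1436 in TSA, against 1661 and 1869.7 in DMSO. This is a log2 fold change of −0.38 (SE 0.23, limma adjusted p = 1.00), with differences of −0.38 and −0.37 in replicates 1 and 2. It is singled out after its values had been seen.

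The other lower probe sets without overlap were uneven. MRPL23, which lines the exit of the peptide tunnel, read 798 and 1353 in TSA against 1670.0 and 1496 in DMSO, with differences of −1.04 and −0.14. MRPS16, whose protein has a bacterial homologue in the small subunit, read 576 and 1136 in TSA against 1208 and 1191 in DMSO, with differences of −1.04 and −0.07. MRPL9 211594_s_at read 558 and 690.0 in TSA against 1299 and 707 in DMSO, with −1.18 and −0.03. All of these had far larger differences in replicate 1. MRPS11, MRPL4, MRPL42, MRPS18B (208907_s_at) and MRPS31 (212604_at) gave −0.44 to −0.29, and their adjusted p values were 1.00.

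On the higher side were MRPL57 204387_x_at, with 626 and 867 in TSA against 484 and 619 in DMSO (log2 0.41, SE 0.28), and MRPS31 212603_at, with 335 and 485 in TSA against 287 and 333 in DMSO (log2 0.36, SE 0.29). MRPL44, which has a ribonuclease III fold, read 152 and 194 in TSA against 109 and 143 in DMSO (log2 0.39, SE 0.39). The groups did not overlap for these 3, and limma adjusted p was 1.00 for each. MRPS31 212604_at was on the lower side (log2 −0.39), and the other MRPL57 probe sets gave values down to −0.03. Probe sets whose names end in _x_at can take signal from other transcripts, and 1 probe set each of MRPL57, MRPL44, MRPL35, MRPL41 and MRPS22 is of that kind.

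**Figure D4:**
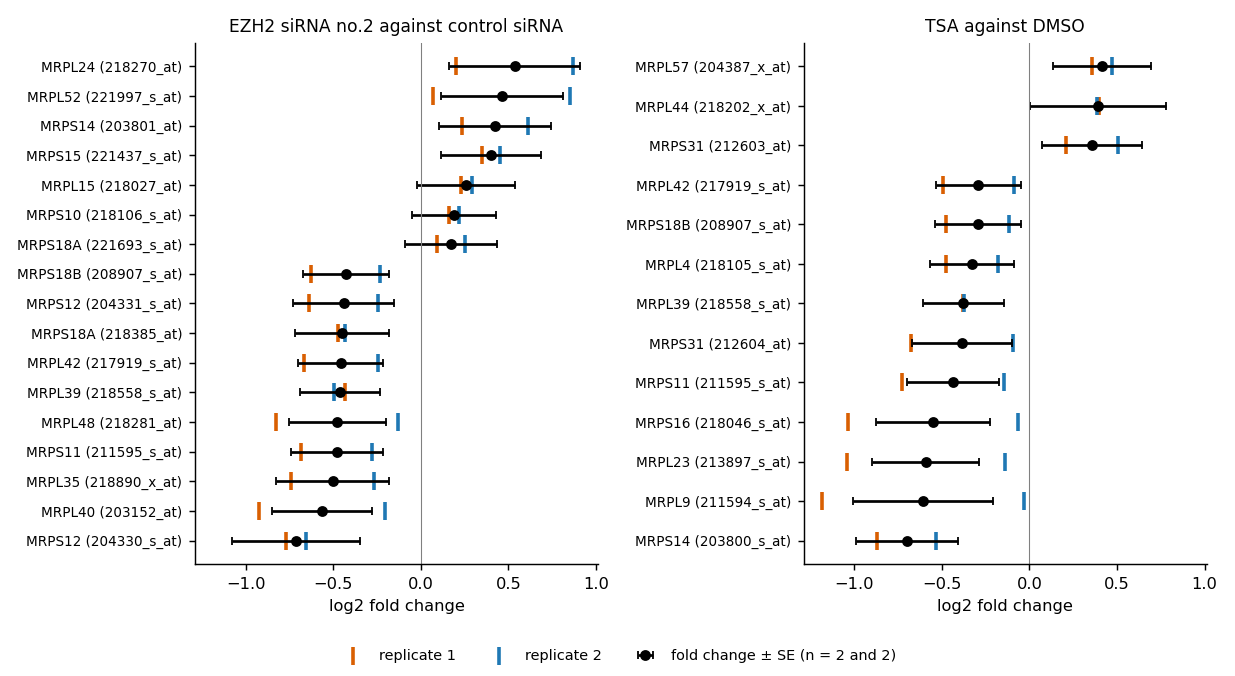
Log2 fold change with its standard error (black points and bars, 2 arrays against 2) for the named probe sets whose groups did not overlap, for EZH2 siRNA no.2 against control siRNA (left) and TSA against DMSO (right), with the difference in replicate 1 (orange) and replicate 2 (blue). MRPL39 has near-equal marks in both panels, and MRPL9, MRPL23 and MRPS16 in TSA have marks near −1.1 and near 0.

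The comparison of EZH2 siRNA no.2 with the control siRNA asks how transcripts respond to lower EZH2. Here too 0 of 61 member probe sets passed limma (0.0% of all), with a smallest adjusted p of 0.920, and 0 had an unadjusted p under 0.05, where 5.27% of all probe sets did (3.55% higher and 1.72% lower). The median log2 fold change was −0.21, with 19 above 0 and 45 below it, against 0.07 over all single-gene probe sets, which is 0.27 lower on the log2 scale (difference −0.27). Scaling each array to the same median moved the median of all probe sets to −0.04 and that of the members to −0.35, a difference of −0.31. Fold changes ran from −0.71 (MRPS12) to 0.65 (MRPL44), and 0 of 64 reached 2-fold (2.15% of all). Groups did not overlap for 7 higher and 21 lower probe sets, against 22.5% and 12.7% of all. The large subunit had a median of −0.23 with 29 of 39 lower, and the small subunit −0.18 with 16 of 25 lower. By symbol the medians were −0.23 and −0.18 as well.

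By replicate number the median difference was −0.31 in replicate 1, with 15 higher and 49 lower, and −0.02 in replicate 2, with 30 higher and 34 lower. In both replicates 30 probe sets were lower and 11 higher. The knockdown itself was deeper in replicate 2, by the EZH2 signals above. Control siRNA replicate 1, the array with the highest member median, is the reference of the larger difference. Whether the depth of knockdown or this reference array bears on the member differences was not tested.

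MRPL39 had the smallest limma p of the members in this comparison. It read 1628 and 1446 with EZH2 siRNA no.2, and 1496 on the array of the unnumbered one, against 2202 and 2046 with the control siRNA. The log2 fold change of EZH2 siRNA no.2 was −0.46 (SE 0.23, limma adjusted p = 0.920), with −0.43 and −0.49 by replicate number. All 3 EZH2 siRNA arrays lay below both control siRNA arrays. DMSO against the control siRNA gave −0.27 for this gene, and these comparisons share the control arrays.

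MRPL40, a large-subunit protein whose gene lies in the region deleted in 22q11 deletion syndrome, read 279 and 420.1 with EZH2 siRNA no.2 against 550.2 and 488 with the control siRNA (log2 −0.56, SE 0.29, limma adjusted p = 0.920). With the unnumbered siRNA it read 507, between the control arrays. MRPL42 read 2752 and 2972 with EZH2 siRNA no.2 against 4392 and 3530.1 with the control siRNA (log2 −0.46, SE 0.24), and MRPS11 read 845 and 892 against 1370.1 and 1087 (log2 −0.48, SE 0.26). For both, the unnumbered siRNA array lay below the control arrays as well, at 3121 for MRPL42 and 718 for MRPS11. MRPL48, MRPL35, MRPS18B (208907_s_at) and MRPS18A (218385_at) gave −0.50 to −0.43.

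MRPS12, a protein of the decoding centre, has 4 probe sets. The 204330_s_at set read 88.1 and 62.5 with EZH2 siRNA no.2 against 168 and 113 with the control siRNA (log2 −0.71, SE 0.36, limma adjusted p = 0.920). The 204331_s_at set read 1235 and 1609 against 1936 and 1910.3 (log2 −0.44, SE 0.29). The other probe sets of MRPS12 lay above 0, up to 0.35, so the gene has no single direction on this array. Of the 10 genes with several probe sets, 4 had values on both sides of 0 with EZH2 siRNA no.2, and 8 with TSA.

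Among the higher probe sets, MRPL24, another protein of the tunnel exit region, read 1086 and 1676 with EZH2 siRNA no.2 against 940.5 and 907 with the control siRNA (log2 0.54, SE 0.37), and 933 and 1882 in DMSO. Its replicate 2 arrays were the higher ones except with the control siRNA. MRPS15, a small-subunit protein, read 887 and 1045 against 691 and 757 (log2 0.40, SE 0.29). MRPS14 203801_at read 143 and 144 against 117 and 85.8 (log2 0.42, SE 0.32). MRPL52, whose promoter letters include AAGATGGCG above, read 156 and 269 against 147 and 138 (log2 0.46, SE 0.35). MRPL15, MRPS10 and MRPS18A (221693_s_at) gave 0.17 to 0.26. The limma adjusted p values of these higher probe sets were at least 0.929.

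The 3 MRPS18 genes encode proteins related to bacterial S18, with MRPS18B and MRPS18C in the small subunit and MRPS18A in the large. MRPS18A 218385_at read 719 and 572 with EZH2 siRNA no.2 against 1006 and 779.6 with the control siRNA (log2 −0.45, SE 0.27), while its 221693_s_at set read 743 and 824 against 694 and 688 (log2 0.17, SE 0.26). MRPS18B 208907_s_at read 647 and 739 against 1012 and 871 (log2 −0.43, SE 0.25), while 217408_at read 1061 and 687 against 1024 and 733 (log2 −0.02). MRPS18C had low signals, 42.0 and 52.7 against 49.4 and 43.0, and its groups overlapped. No common direction was measured in this family.

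The unnumbered EZH2 siRNA has 1 array, and its spread was taken from the groups of 2. Against the control siRNA, 0 of 61 member probe sets passed limma (0.0% of all, smallest adjusted p = 0.951), and at an unadjusted p under 0.05 there were 0 higher and 2 lower, where 5.0% of all probe sets were called (2.81% higher and 2.19% lower). The median log2 fold change was −0.21, with 19 above 0 and 45 below it, against 0.06 over all. The array lay above both control arrays for 15 probe sets and below both for 37 (39.6% and 27.3% of all). MRPL11, of the stalk base where translation factors bind, read 711 with the unnumbered siRNA against 1342 and 1619.9 with the control siRNA (log2 −1.03, SE 0.35, limma adjusted p = 0.951). It was the only member past 2-fold in this comparison, where 4.62% of all probe sets were. EZH2 siRNA no.2 gave MRPL11 signals of 1074 and 1197, also below both control arrays. MRPS11 gave −0.75 (SE 0.32, limma adjusted p = 0.951), MRPL34 −0.94 (SE 0.57) and MRPL12 −0.76 (SE 0.49). On the higher side MRPL44 gave 0.89 (SE 0.48), MRPL52 0.70 (SE 0.43) and MRPS14 203801_at 0.65 (SE 0.39). The other MRPS14 probe set, 203800_s_at, was not higher. It deviated from its own mean by −0.29 on this array, against −0.26 and −0.20 with the control siRNA.

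Set against EZH2 siRNA no.2, the unnumbered siRNA gave a member median of 0.03, with 34 above 0 and 30 below it, where the median of all was 0.00. No member passed limma (0 of 61, 0.0% of all, smallest adjusted p = 1.00), and 0 had an unadjusted p under 0.05 (1.87% of all, with 0.549% higher and 1.32% lower). The array lay above both arrays of EZH2 siRNA no.2 for 12 probe sets and below both for 18 (31.0% and 31.4% of all), and 0 of 64 reached 2-fold (3.15% of all). The widest differences among the tested probe sets were MRPL11, with 711 against 1074 and 1197 (log2 −0.66, SE 0.35), MRPL57 204386_s_at, with 3675 against 4167 and 7141 (log2 −0.57, SE 0.37), and MRPL40, with 507 against 279 and 420.1 (log2 0.53, SE 0.35). MRPL57 204387_x_at was lower as well, with 452 against 525 and 693. The 221995_s_at set of MRPL57 was not, with 305 against 196 and 335. A p that misses the threshold does not show that both siRNAs act alike.

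DMSO and the control siRNA, which differ in time and in transfection, gave a median of −0.04 with 25 of 64 above 0, against 0.04 over all. After scaling to equal array medians, 14 of 64 were above 0. No member passed limma (0 of 61, 0.0% of all, smallest adjusted p = 1.00), and at an unadjusted p under 0.05 there was 1 higher, MRPS14 203800_s_at, and 0 lower, where 4.26% of all probe sets were called (2.93% higher and 1.33% lower). Groups did not overlap for 6 higher and 12 lower probe sets (19.6% and 13.9% of all), and 0 reached 2-fold (1.84% of all). For MRPS14 203801_at, deviations from its own mean were −0.15 and −0.26 in DMSO, against −0.04 and −0.41 with the control siRNA. Its groups overlapped. MRPL12 gave −0.52 (SE 0.40), MRPL19, a bL19 homologue, −0.49 (SE 0.29) and MRPS27 0.35 (SE 0.25). By replicate number the member median was −0.17 and 0.01.

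The replicate numbers were then compared with the treatment group in the model. Replicate 2 against replicate 1 gave a member median of 0.17, with 52 of 64 above 0, against 0.05 over all, and after scaling to equal array medians 38 of 64 were above 0. This median rested largely on TSA, being 0.03 without either TSA array (37 of 64 above 0, against 0.06 over all) and 0.33 without either control siRNA array. No member passed limma (0 of 61), while 1.46% of all probe sets did (200 of 13671). At an unadjusted p under 0.05 there were 7 higher and 2 lower, where 18.4% of all probe sets were called (10.4% higher and 7.99% lower), and 0 reached 2-fold (1.62% of all). In every treatment 12 probe sets were higher and 3 lower in replicate 2 (14.9% and 9.37% of all). The median difference was 0.56 in TSA, 0.22 with EZH2 siRNA no.2, 0.03 in DMSO and −0.16 with the control siRNA, so the treatments did not share its size or sign. MRPL34 came closest of the members to the threshold (log2 0.80, SE 0.21, limma adjusted p = 0.0944). It read 915 against 426 with EZH2 siRNA no.2, 1293 against 781 with the control siRNA, 899 against 334 in TSA and 728 against 701 in DMSO, replicate 2 against replicate 1. MRPL24 gave 0.58 (SE 0.19), MRPL46 0.57 (SE 0.21) and MRPL18 0.44 (SE 0.18). MRPS18B 217408_at gave −0.45 (SE 0.16), with 687 against 1061 for EZH2 siRNA no.2 and 829 against 1021 in TSA. The other MRPS18B probe set, 208907_s_at, was higher in replicate 2 in these treatments. Its deviations from its own mean were −0.07 against −0.25 with EZH2 siRNA no.2 and −0.16 against −0.27 in TSA. It was lower in replicate 2 with the control siRNA (0.16 against 0.37) and in DMSO (−0.04 against 0.20). MRPL9 211594_s_at gave −0.56 (SE 0.22). The other MRPL9 probe set, 209609_s_at, read 2089 against 1165 in TSA and 1728 against 1587 in DMSO. It read 1662 against 1646 with EZH2 siRNA no.2 and 1702 against 1711 with the control siRNA. The 18 hybridisation control probe sets, which report on the array step, had mean log2 signals of 10.43 to 10.53 on the replicate 2 arrays and 9.81 to 10.16 on those of replicate 1, with 9.80 for the unnumbered EZH2 siRNA. Whether this bears on the members was not tested.

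The members were also divided by the ETS core in their promoters. With EZH2 siRNA no.2 the 24 probe sets of the 18 genes with CCGGAAG had a median log2 fold change of −0.18 with 16 lower, and the 34 probe sets of the 27 genes without it −0.22 with 25 lower. With TSA these medians were −0.10 with 17 lower and −0.15 with 26 lower. No test was made of this difference. MRPL3, a large-subunit protein whose ETS letters are shown above, read 2672 and 4437 in TSA against 3813 and 4839 in DMSO (log2 −0.32, SE 0.28), and 3823 and 3185 with EZH2 siRNA no.2 against 4500.4 and 3604 with the control siRNA (log2 −0.21, SE 0.28). MRPL17, the example with NRF1 letters and a tunnel exit protein, read 646 and 1237 in TSA against 1452 and 1168 in DMSO (log2 −0.53, SE 0.36), and 792 and 1384 with EZH2 siRNA no.2 against 1599 and 1233 with the control siRNA (log2 −0.41, SE 0.36). Both genes had overlapping groups in both comparisons, and for both the replicate 1 array was the lower of the TSA pair.

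The remaining mitochondrial translation machinery was counted for comparison, and 0 of these probe sets passed limma with EZH2 siRNA no.2 or with TSA. Other mitoribosome proteins had 4 probe sets of 3 genes, with medians of −0.05 and −0.16 for the siRNA and TSA. DAP3, a GTP-binding protein of the small subunit, gave 0.16 (SE 0.28) and −0.12 (SE 0.28). GADD45GIP1, a large-subunit protein, gave −0.46 (SE 0.36) and −0.61 (SE 0.36), with 203 and 478 in TSA against 528 and 459 in DMSO. TSA replicate 1 was the low array for it as well.

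The 10 probe sets of 7 mitochondrial translation factors had medians of 0.05 with EZH2 siRNA no.2 and −0.09 with TSA. TSFM, the exchange factor of the elongation factor TUFM, read 546 and 718 with EZH2 siRNA no.2 against 937 and 1313 with the control siRNA on probe set 212656_at (log2 −0.80, SE 0.28, limma adjusted p = 0.920). With TSA it gave −0.43 (SE 0.28), and its other probe set, 214332_s_at, gave −0.47 (SE 0.32) and −0.34 (SE 0.32).

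Mitochondrial aminoacyl-tRNA synthetases, which charge tRNAs and in 2 cases, GARS1 and KARS1, also serve the cytosol, had 13 of 17 probe sets above 0 with EZH2 siRNA no.2 (median 0.18) and 6 of 17 with TSA (median −0.06). NARS2 read 1502 and 1753 with EZH2 siRNA no.2 against 1197 and 986 with the control siRNA (log2 0.57, SE 0.28, limma adjusted p = 0.920). GARS1 208693_s_at read 3545 and 3979 in TSA against 4859.9 and 6022 in DMSO (log2 −0.52, SE 0.24, limma adjusted p = 1.00).

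Assembly and rRNA factors had a median of −0.10 with EZH2 siRNA no.2 (14 of 20 below 0) and −0.0047 with TSA. The rRNA methyltransferase MRM2 gave −0.50 (SE 0.29) with the siRNA on probe set 222130_s_at, and with TSA −0.55 (SE 0.29) there but 0.40 (SE 0.28) on 218356_at. Genes of mitochondrial transcription and its nuclear regulators had medians of −0.0030 with EZH2 siRNA no.2 and 0.14 with TSA (13 of 16 above 0). SLIRP, which stabilises mitochondrial mRNAs together with LRPPRC, gave −0.69 (SE 0.37) with the siRNA, and LRPPRC gave 0.43 (SE 0.26).

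Complex I subunits had medians of −0.31 with EZH2 siRNA no.2 (30 of 36 lower) and −0.39 with TSA (32 of 36 lower), and cytosolic ribosomal proteins −0.21 (77 of 95 lower) and −0.25 (76 of 95 lower). In TSA these too divided by replicate number. The medians in replicates 1 and 2 were −0.78 and −0.02 for complex I, and −0.64 and 0.13 for cytosolic ribosomal proteins, beside −0.48 and 0.06 for the mitochondrial ones.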

How the data were processed

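Total RNA of 9 A673 samples was hybridised to human Affymetrix arrays. The deposited values are intensity values (MAS5 signals on a linear scale) that the authors made with MAS5, per the submitters' processing notes. Its version and scaling are not given in the sources used here, and the values came without detection calls.

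Tests used log2(signal + 25.1), with the 20th percentile of the deposited signals as pseudocount. Of the 22283 probe sets, 68 are controls, 1043 name several genes and 2107 none in GEO's platform annotation. All 64 member probe sets matched RefSeq by gene identifier, with 0 symbols changed. Single-gene probe sets with a mean of at least 53.2 (the 30th percentile) were tested (13671), each on its own. The 5 group means came from a fit to all 9 arrays (limma 3.58.1, R 4.3.3, eBayes with trend, 4 residual and 7.01 prior degrees of freedom), two-sided, with Benjamini-Hochberg adjustment over all tested probe sets and a threshold of 0.05. Replicate 2 against replicate 1 used the 8 numbered arrays, with treatment as a covariate. Medians cover all 64 members and have no test. The number of arrays limits the precision. Data were simulated with independent noise, whose spreads were those of these arrays shuffled over the probe sets. There the fit of TSA against DMSO recovered 4.8% of 2-fold and 64.8% of 4-fold changes. Most changes of 2-fold were therefore missed at this threshold in the simulation. It held no shift of a whole array, such as that of TSA replicate 1, and no link between signal and spread.

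Members and lists were chosen with earlier results of these data known. Named probe sets had the smallest p, up to 10 each way in the 2 main comparisons and up to 5 for DMSO against the control siRNA, all without overlap between groups, and, with no overlap condition, up to 6 for the replicate numbers and up to 5 for the unnumbered siRNA, with list members of smallest p up to 2 each way, genes with several probe sets, and EZH2. One listed gene is not reported here. Alternatives were pseudocounts of 5.42 and 87.2, dropping the filter or raising it to the 50th percentile, a single probe set per gene, quantile normalization, equal array medians, eBayes without trend, only the groups compared, pooling both EZH2 siRNAs, a replicate or hybridisation control block, and each array left out.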

Additional observations from a re-analysis of the deposited data

How the results depend on the processing

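No member passed the adjusted threshold under any alternative run, and the lowest adjusted p of a member was 0.566 with EZH2 siRNA no.2, 0.548 with TSA and 0.0698 for replicate 2 against replicate 1. The member median ran from −0.35 to −0.19 over the processing alternatives with EZH2 siRNA no.2 and from −0.27 to −0.06 with an array left out. With TSA the member median ran from −0.26 to −0.15 over the processing alternatives. The filter, the single probe set per gene, the eBayes trend and the choice of groups cannot move these medians. They were always taken over all member probe sets, without a filter. With an array left out the TSA median ran from −0.50 (without TSA replicate 2) to 0.047 (without TSA replicate 1). The medians of DMSO against the control siRNA (−0.11 to 0.04) and of the unnumbered EZH2 siRNA against EZH2 siRNA no.2 (−0.12 to 0.07) took both signs with an array left out. That of the unnumbered siRNA against the control siRNA ran from −0.31 to −0.09 over the processing alternatives. The value of −0.09 came from the hybridisation control block, which counts the unnumbered array with replicate 1. With that block 25 of 64 were above 0. That of replicate 2 against replicate 1 ran from 0.04 to 0.19 over the processing alternatives and from 0.03 to 0.33 with an array left out. MRPL46 in the unnumbered EZH2 siRNA against EZH2 siRNA no.2 was 0.33, and −0.15 to 0.81 with an array left out, negative without EZH2 siRNA no.2 replicate 1, and the cause was not tested. The other 1038 values of single probe sets kept their side of 0 and of the threshold. Counts of all probe sets at an unadjusted p under 0.05 ran from 490 to 1184 with EZH2 siRNA no.2 (721 as reported) and from 145 to 1033 with TSA (330). The 200 calls for replicate 2 against replicate 1 ran from 0 to 301. With equal array medians the unadjusted calls with EZH2 siRNA no.2 were 228 higher and 458 lower, against 486 and 235 as reported, and with TSA 94 and 209, against 170 and 160.

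Replicate differences correlated between groups at r = 0.099 to 0.41 over the tested probe sets and at 0.085 to 0.36 over the tested members. The labels name no shared day or batch. A fit with the replicate number as a block called 0 members. It raised the unadjusted calls over all probe sets to 1183 with EZH2 siRNA no.2 and 601 with TSA. The member medians stayed at −0.21 and −0.19, but such a block cannot move them, because the replicate numbers are balanced over the groups. No paired analysis was possible for the unnumbered EZH2 siRNA because its array has no number.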
